A study of Bos taurus with 2 samples.

Results

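Every gene of a cytosolic ribosomal protein was taken from an RNA sequencing comparison of calf seminiferous tubules, where sperm develop in the testis. Members were the genes whose symbol is RPL or RPS with a number, or RPSA, RPLP0, RPLP1 or RPLP2, without the RPS6 kinases. This gave 109 of 24616 listed Ensembl genes, under 82 symbols. The study had 1 library from a calf aged 9 months and 1 from a calf aged 3 months, both from total RNA of frozen tubule pieces, and no treatment or genotype is given in the labels. Depth was 29782234 counts at 9 months and 37600534 at 3 months. With 1 library per age there is no replicate check and no test. Below, values at 9 months and at 3 months are those of these libraries, and each difference is one between them. Its 95% interval, given in square brackets, covers counting error only.

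The cytosolic ribosome reads mRNA and joins amino acids into protein. Its small or 40S subunit holds RPS proteins and decodes the message, and its large or 60S subunit holds RPL proteins and makes the peptide bond. Each protein is normally present as a single copy per ribosome, apart from the paired P proteins of the stalk. Most of these mRNAs begin with a terminal oligopyrimidine (TOP) tract, through which their translation is regulated together. In the mammalian testis a few of these proteins also have copies that are used mainly by germ cells. In mice the X chromosome is silenced in spermatocytes, and Rpl10l, an intronless copy of the X-linked Rpl10, is needed there for meiosis.

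Ribosomal protein genes were lower at 9 months almost throughout, and a single member was higher. The 109 members together took 2.17% of the counts at 9 months [2.17 to 2.18] and 8.67% at 3 months [8.67 to 8.68]. In CPM, counts of a gene relative to an effective library size from the TMM scaling of edgeR (trimmed mean of log ratios), they summed to 18589 CPM at 9 months and 101468 CPM at 3 months. That is 5.46-fold lower at 9 months [5.44 to 5.47]. In bulk tissue fewer cells of a type and less RNA per cell cannot be told apart. With only the row of most counts kept for each symbol, the sums were 16189 CPM at 9 months and 84719 CPM at 3 months, 5.23-fold lower.

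A gene counted as measured with 10 or more counts over both libraries, and as lower or higher at a difference of 2-fold or more whose interval left out a ratio of 1. Of the 109 members 103 were measured, and at least 1 row of each of the 82 symbols was among them. Of the 103, 97 were lower at 9 months, 1 was higher and 5 lay within 2-fold. Among all 18025 measured genes 22.8% were lower and 28% higher by the same rule. At least 4-fold lower were 64 of the 103 members, against 8.65% of all measured genes. The median log2 ratio of the 9-month to the 3-month library was -2.30 over the measured members and 0.02 over all measured genes. Scaling to plain library totals changed the ratio of the effective library sizes by 0.45 on the log2 scale, so that log2 ratios were higher by about that much. Then 91 of the 103 members were lower with a median of -1.85. Of the 103, 102 had a log2 ratio below 0 under TMM and each of the 5 other scalings tried, and RPL10L was above 0 under each. Of all called genes, 55.1% were higher with TMM, 71.2% with plain totals and 44.3% with scaling to a list of reference genes.

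**Figure D1:**
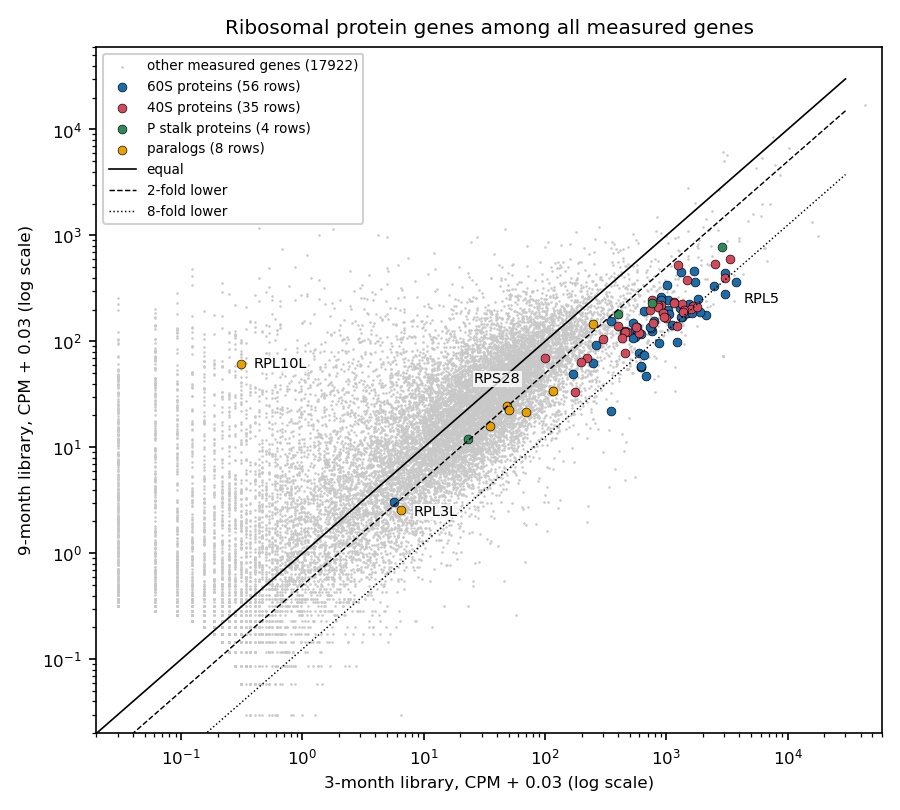
Expression of each measured gene in the 9-month library (vertical axis) against the 3-month library (horizontal axis), both in TMM-scaled CPM on log axes, with 0.03 added so that genes at 0 can be drawn. Coloured points are member rows by class and grey points are other genes. Most members lie between the lines for 2-fold and 8-fold lower at the high end of expression, while RPL10L is the one member above the line of equal expression.

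Cell type markers also differed between the libraries, in both directions, and the part of cell composition in the ratios of the members was not tested. All 13 spermatid markers were higher at 9 months, with a sum of 4352 CPM at 9 months and 51.6 CPM at 3 months, where ODF1 was at 0 counts. The 10 spermatocyte markers were all higher as well, with 1325 CPM at 9 months and 44.7 CPM at 3 months. Of 7 spermatogonial markers 3 were higher and 4 within 2-fold, with 548 CPM at 9 months and 156 CPM at 3 months. The 6 Leydig cell markers were all lower, with 2755 CPM at 9 months and 17660 CPM at 3 months, and 5 of 8 Sertoli cell markers were lower and 1 higher, with 763 CPM at 9 months and 4049 CPM at 3 months. Of 6 fibroblast markers 3 were lower, with 1136 CPM at 9 months and 3761 CPM at 3 months. Of 5 peritubular myoid markers 1 was lower and 2 were higher, with 598.9 CPM at 9 months and 226 CPM at 3 months. Of 4 endothelial markers 3 were lower and 1 higher, with 104 CPM at 9 months and 132 CPM at 3 months. Of 6 leukocyte markers 2 were lower and 1 higher, with 212 CPM at 9 months and 394 CPM at 3 months. Red blood cell genes summed to 1.58 CPM at 9 months and 2.96 CPM at 3 months. Sertoli cells line the tubules and their markers were present in both libraries, as were those of Leydig cells, which lie between tubules.

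Members are short, with a median length of 562 bases against 1782 over all measured genes. Among genes under 300 bases with a mean of at least 100 CPM over both libraries, the 5 members had a median log2 ratio of -3.42, and the 13 other genes with a symbol -3.12, with 92.3% of these called lower. In this shortest class the other genes were thus close to the members, while in the longer classes they were less reduced. Among genes of at least 300 and under 600 bases at the same expression, the 46 members had a median log2 ratio of -2.33, and the 27 other genes with a symbol -0.52. At 600 bases and more but under 1000 the medians were -2.37 for 32 members and -0.96 for 99 other genes with a symbol. With genes that have no symbol included, the medians of the other genes were -1.71 over 84 and -1.63 over 173, and what those genes without a symbol encode is not given in the sources used here. The part of length in the ratios was not tested.

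Several symbols belong to more than 1 row of the tables, and such rows cannot be read as separate measurements. There were 22 such symbols with 49 rows, and in 17 of them more than 1 row was measured. RPL23A, a protein at the exit of the peptide tunnel, had 6404 and 6403 counts at 9 months and 47577 and 47577 at 3 months in rows ENSBTAG00000022278 and ENSBTAG00000032022. How reads that match several rows were counted is not given in the sources used here, so these rows may hold the same reads. RPL39 had 3 rows of 156 bases with 2015, 2015 and 2020 counts at 9 months and 19895, 19898 and 19954 at 3 months. Of the 21 further measured rows, 3 came within 5% of the leading row of their symbol in both libraries, and 16 had a log2 ratio within 0.25 of it. Levels of these genes are therefore uncertain, as is the summed level of the members. Rows that hold the same reads must agree in their ratio, so agreement between rows is no independent check of it. The ratio seldom depended on the row. The exceptions were RPL36A and RPL13A, with differences of 2.06 and 1.59 between rows, RPS27L with 0.54, RPL37 with 0.51 and, just past 0.25, RPL12 with 0.26.

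The 6 members that were not measured were extra rows of RPL3, RPL7, RPL17, RPL38, RPS21 and RPS26. They had 0 or 1 count at 9 months and 0 to 5 at 3 months. Each of these symbols had another, measured row.

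Leaving out paralogs, 75 ribosomal proteins could be represented by their leading row. All but RPS28 were called lower, with log2 ratios between -3.84 and -0.49, a median of -2.31 and an SD of 0.63 across the genes. The counting error of a single gene was far smaller, with a median standard error of 0.02 and a highest of 0.05 on the log2 scale. Members therefore differed from each other by more than counting error. The 41 proteins of the 60S subunit had a median of -2.42 and the 31 of the 40S subunit -2.21, and their ranges overlapped broadly, from -3.84 to -1.17 and from -3.13 to -0.49.

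**Figure D2:**
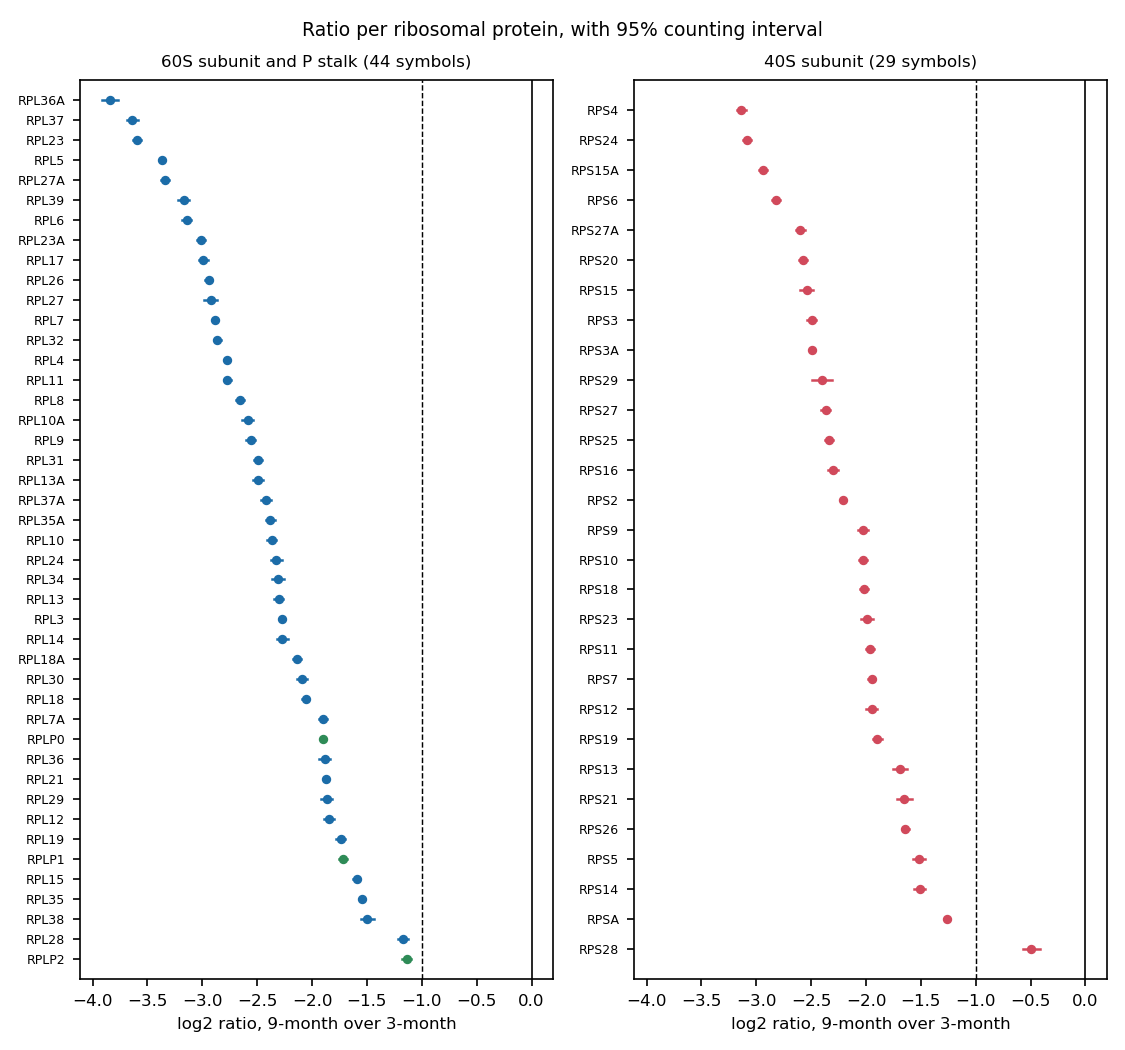
Log2 ratio of the 9-month to the 3-month library for 73 of the 75 ribosomal proteins, 1 row per symbol, with bars for the 95% exact counting interval. The left panel holds the 60S subunit with the P stalk in green and the right panel the 40S subunit, and the dashed line marks 2-fold lower. Ratios run from RPL36A at the top left to RPS28, the only one to the right of the dashed line.

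Among 60S proteins, by their leading rows, the lowest ratios belonged to RPL36A, RPL37, RPL23, RPL5 and RPL27A. The 3 short rows of RPL39, which are not leading, were each 10.7-fold lower, below the leading RPL5 row. RPL36A, near the site where the spent tRNA leaves, had 772 and 1636 counts at 9 months and 11313 and 21693 at 3 months in rows ENSBTAG00000019253 and ENSBTAG00000027610. These rows were 15.9-fold [14.8 to 17.1] and 14.4-fold [13.7 to 15.1] lower. RPL37 (ENSBTAG00000016391), a zinc-binding protein, stood at 97.8 CPM at 9 months and 1218 CPM at 3 months, 12.5-fold lower [12.0 to 12.9]. It and RPL36A had the largest folds among the members that were lower. RPL23 (ENSBTAG00000003229), which also binds MDM2 when ribosome assembly is disturbed, stood at 176 CPM at 9 months and 2118 CPM at 3 months, 12.1-fold lower [11.8 to 12.4]. RPL27A stood at 188 CPM at 9 months and 1905 CPM at 3 months. It was 10.1-fold lower [9.86 to 10.4].

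RPL5 and RPL11 bind the 5S rRNA together and restrain MDM2, but their ratios differed. The leading RPL5 row (ENSBTAG00000002026) had 12587 counts at 9 months and 119878 at 3 months, the most of any member there. RPL11 (ENSBTAG00000020905) had 7786 counts at 9 months and 49065 at 3 months and was 6.83-fold lower [6.67 to 6.995]. RPL3, RPL8 and RPL10, which lie close to the peptidyl transferase centre, were 4.83-fold [4.74 to 4.92], 6.30-fold [6.14 to 6.46] and 5.16-fold [5.01 to 5.31] lower. Around the exit of the peptide tunnel the spread was wider. There RPL39, RPL23A, RPL17, RPL26 and RPL31 were 9.01-fold, 8.05-fold, 7.95-fold, 7.69-fold and 5.63-fold lower, each by its leading row, whereas RPL35, also at the exit, was 2.92-fold lower [2.86 to 2.97].

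At the other end of the 60S subunit were RPL28 and RPL38, followed by RPL35. RPL28 (ENSBTAG00000023343) stood at 155 CPM at 9 months and 350 CPM at 3 months, 2.25-fold lower [2.18 to 2.33]. RPL38, which in mouse embryos favours translation of Hox mRNAs, was 2.82-fold lower [2.71 to 2.94]. RPL13A, which also takes part in silencing of inflammatory mRNAs, differed between its rows and was 5.61-fold lower [5.44 to 5.79] in its leading row. Its other row had only 105 counts at 9 months and 182 at 3 months and lay within 2-fold.

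The P stalk recruits and activates elongation factors, and its proteins lay towards the less reduced end. RPLP0 (ENSBTAG00000017389), the base of the stalk, stood at 779 CPM at 9 months and 2900 CPM at 3 months, 3.72-fold lower [3.67 to 3.77]. RPLP1 was 3.30-fold lower [3.22 to 3.38]. RPLP2 (ENSBTAG00000001777) stood at 180 CPM at 9 months and 396 CPM at 3 months and was 2.20-fold lower [2.14 to 2.27], close to the limit of 2-fold. Its minor row (ENSBTAG00000003086), at 12.0 CPM at 9 months and 23.3 CPM at 3 months, lay just inside that limit at 1.95-fold [1.73 to 2.20]. RPL12, which anchors the stalk, was 3.59-fold lower [3.48 to 3.70] in its leading row.

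In the 40S subunit RPS4, RPS24 and RPS15A were among the lowest ratios. The row RPS4 (ENSBTAG00000018800) had 4826 counts at 9 months and 39115 at 3 months, 8.78-fold lower [8.52 to 9.05]. RPS24, one of the genes mutated in the inherited anaemia named after Diamond and Blackfan, stood at 211 CPM at 9 months and 1794 CPM at 3 months, 8.50-fold lower [8.30 to 8.71]. RPS19, the most often mutated gene in that anaemia, was 3.73-fold lower [3.63 to 3.83], and RPS26, of the same group, 3.12-fold [3.04 to 3.20].

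RPS6, the protein phosphorylated by the S6 kinases, had 6883 and 6659 counts at 9 months and 44874 and 44154 at 3 months. Its rows were 7.07-fold [6.89 to 7.25] and 7.19-fold [7.003 to 7.37] lower. RPS27A, made as a fusion with ubiquitin, was 6.05-fold lower [5.89 to 6.23]. RPS3, at the mRNA entry channel, was 5.64-fold lower [5.48 to 5.80], and RPS14, on the platform of the subunit, 2.85-fold lower [2.76 to 2.95].

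RPS28 and RPSA were the least reduced 40S proteins. RPS28 (ENSBTAG00000002468) had 2453 counts at 9 months and 3186 at 3 months. Scaled, that was 70.4 CPM at 9 months and 99.1 CPM at 3 months, 1.41-fold lower [1.33 to 1.48] and within the 2-fold limit. RPSA (ENSBTAG00000009757), which is also known as the precursor of the laminin receptor, stood at 522 CPM at 9 months and 1250 CPM at 3 months, 2.396-fold lower [2.35 to 2.44].

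Levels of different genes were compared per length, in the authors' deposited RPKM, which is relative to plain library totals. Over the 75 leading rows the median was 334 RPKM at 9 months and 1229 RPKM at 3 months. The 10th and 90th percentiles were 199 and 571 RPKM at 9 months, and 610 and 2829 RPKM at 3 months. The levels lay closer together at 9 months, where the higher of these percentiles was 2.86 times the lower, against 4.64 times at 3 months. Of the 100 genes of highest RPKM, 10 were members at 9 months and 35 at 3 months. These counts take all rows and not only leading ones, so a symbol with several rows, such as RPL39, can enter repeatedly.

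Among the highest RPKM values at 9 months were those of RPLP0 at 832, RPS3A at 804, RPS2 at 674, RPSA at 612, RPS7 at 604, RPL32 at 586 and RPL35 at 575. Among the highest at 3 months were RPL23 at 3672 RPKM, RPL37 at 3540, RPS3A at 3302, RPL5 at 3169, RPL32 at 3124, RPS15A at 3061 and RPS24 at 2846. RPS3A and RPL32 stood among the 8 highest in both libraries. RPL23 ranked 26th of 75 at 9 months and 2nd at 3 months, and RPSA 5th at 9 months and 44th at 3 months. RPS28 was last of the 75 at 3 months, at 255 RPKM, and 53rd at 9 months, at 248 RPKM.

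Across the 75 genes the RPKM of the libraries had a Spearman correlation of 0.69. The log2 ratio had a Spearman correlation of -0.71 with the RPKM of the 3-month library, which is also the denominator of the ratio, of -0.01 with the RPKM of the 9-month library and of 0.04 with gene length. All values of a library share its depth and preparation, and the genes are not independent replicates.

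**Figure D3:**
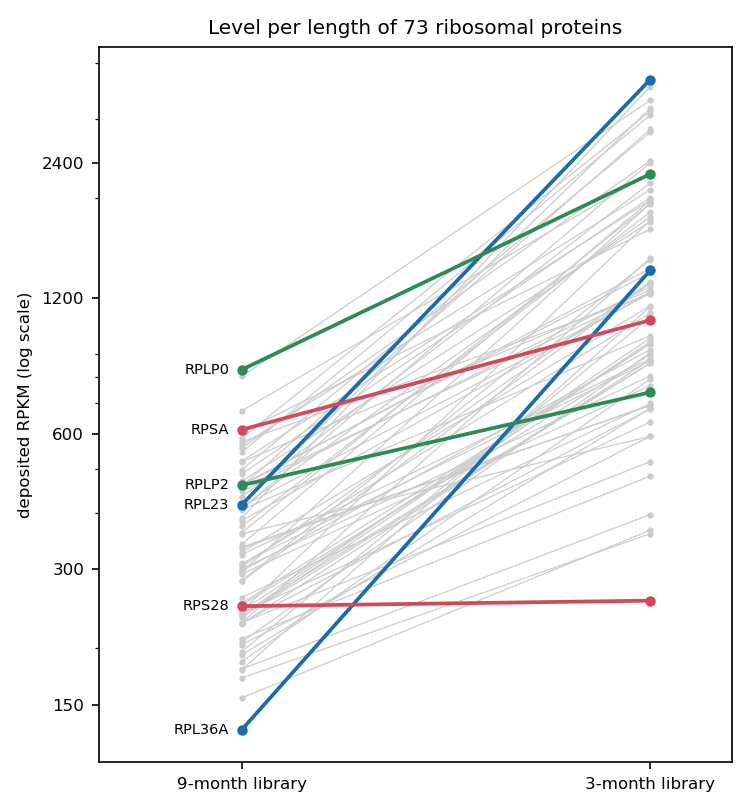
Deposited RPKM, on a log axis, of 73 of the 75 ribosomal proteins in the 9-month library on the left and the 3-month library on the right, with 1 line per symbol. Named lines are RPLP0, RPSA, RPLP2, RPL23, RPS28 and RPL36A. The lines fan out towards the 3-month library, and the line of RPS28 is nearly level.

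The paralogs were less reduced than their parent genes. Of the 8 measured paralog rows, 5 were lower at 9 months, 1 was higher and 2 lay within 2-fold. Among all measured genes 22.8% were lower and 28% higher. The number of lower paralog rows depends on the scaling. The log2 ratios were -1.15 for RPL26L1, -1.14 for RPS27L row ENSBTAG00000012898 and -1.34 for RPL3L. With plain totals, which raise log2 ratios by about 0.45, these come to lie within 2-fold. The 7 rows whose parent gene is in the tables all had a higher log2 ratio than the parent. Each of these parents was at least 4-fold lower, as were only 8.65% of all measured genes. Most genes of any kind thus also had a higher log2 ratio than these parents. The comparison within a pair of genes does not depend on the scaling of the libraries. Reads that fit both a paralog and its parent may have been entered in either or both, so the shares below are uncertain where the sequences are near identical.

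RPL10L (ENSBTAG00000024582), the germ cell copy of RPL10, was the only member higher at 9 months. It had 2151 counts at 9 months and 9 at 3 months, which is 61.7 CPM at 9 months and 0.280 CPM at 3 months. The ratio was 221-fold higher [116 to 483]. RPL10 had 5384 and 4120 counts at 9 months and 25628 and 19685 at 3 months in its 2 rows, which were 5.16-fold [5.01 to 5.31] and 5.18-fold [5.01 to 5.36] lower. Per kilobase, RPL10L made up 27.3% of RPL10L plus the leading RPL10 row at 9 months [26.3 to 28.3] and 0.0329% at 3 months [0.0151 to 0.0625]. The ratio of RPL10L relative to RPL10 was 1138 times higher at 9 months [598 to 2493].

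RPS4Y1 (ENSBTAG00000025617) encodes a form of RPS4. Its symbol is that of a gene on the human Y chromosome, while in the bovine assembly ARS-UCD2.0 the gene of this symbol lies between SRSF3 and CDKN1A. RPS4Y1 had 5097 counts at 9 months and 8049 at 3 months and lay within 2-fold, at 1.71-fold lower [1.65 to 1.77]. Per kilobase it made up 47.5% of RPS4Y1 plus RPS4 at 9 months [46.5 to 48.5] and 14.99% at 3 months [14.7 to 15.3]. Relative to RPS4 it was 5.13 times higher at 9 months [4.90 to 5.38]. In the RefSeq table RPS4 is a synonym of both RPS4X and RPS4Y1, so the identity of the row RPS4 as the X-linked gene rests on the separate row for RPS4Y1.

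The other paralogs were far below their parents in both libraries. RPL7L1 had 860 counts at 9 months and 1571 at 3 months, just inside the limit at 1.98-fold lower [1.82 to 2.15], and its share beside RPL7 was 9.63% at 9 months [9.03 to 10.2] and 2.78% at 3 months [2.65 to 2.92]. RPL26L1 had 550 counts at 9 months and 1127 at 3 months, and a share beside RPL26 of 5.42% at 9 months [4.98 to 5.88] and 1.63% at 3 months [1.53 to 1.72]. RPS27L, which in human cells is a target of p53, had shares beside RPS27 of 11.3% at 9 months [10.6 to 12.1] and 5.19% at 3 months [4.94 to 5.44] in row ENSBTAG00000012898. In row ENSBTAG00000040435 they were 10.2% at 9 months [9.55 to 11.0] and 6.66% at 3 months [6.39 to 6.93].

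RPL3L, which replaces RPL3 in adult striated muscle, was near the bottom of the range. It had 88 counts at 9 months and 208 at 3 months, a share beside RPL3 of 0.678% at 9 months [0.544 to 0.834] and 0.360% at 3 months [0.313 to 0.413]. RPL22L1 had 1192 counts at 9 months and 3764 at 3 months, 3.42-fold lower [3.21 to 3.66]. No listed gene carried the symbol of its parent RPL22, of the paralogs RPL36AL and RPL39L, or of RPL41, so these were not analysed here.

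**Figure D4:**
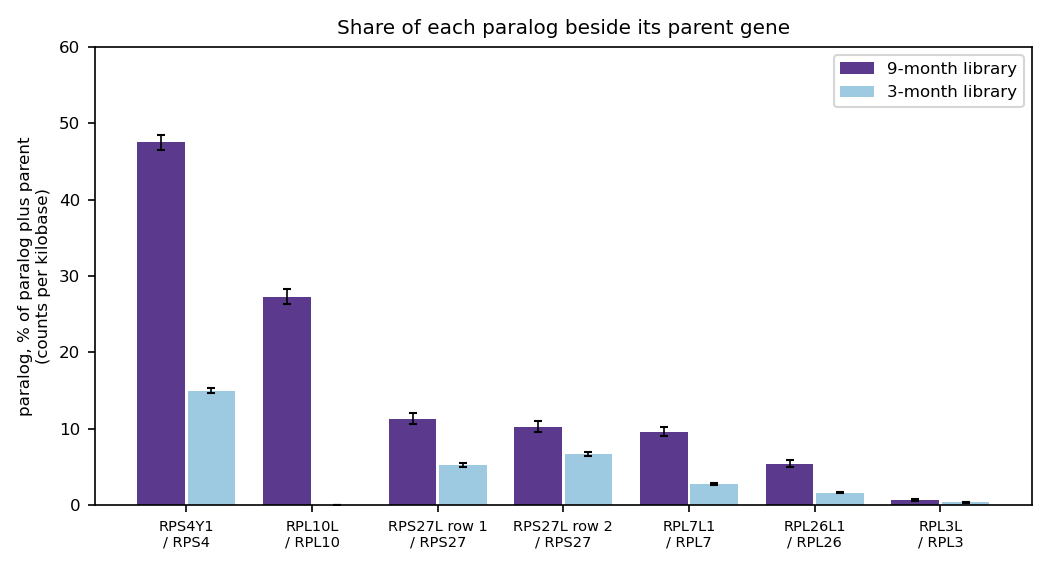
Share of each paralog in the sum of paralog and parent, in percent of counts per kilobase, in the 9-month library (dark bars) and the 3-month library (light bars), with 95% exact counting intervals. RPS27L row 1 is ENSBTAG00000012898 and row 2 is ENSBTAG00000040435. Every dark bar is higher than the light bar beside it, and RPL10L is almost absent from the 3-month library at 0.0329%.

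RPL10, RPL36A, RPL39 and RPS4X are X-linked in mammals. Under these symbols, with RPS4 for RPS4X, 10 rows were measured. Ranked from the lowest log2 ratio of the 103 members, 2 rows of RPL36A held ranks 1 and 2. The 4 rows of RPL39 held ranks 6, 7, 8 and 11, and RPS4 held rank 13. Rows of 1 symbol are not separate measurements, so the number of low rows is not a number of genes. Both rows of RPL10 lay near the middle, at ranks 45 and 47. The remaining RPL36A row (ENSBTAG00000025564) had 1725 counts at 9 months and 5474 at 3 months, 3.44-fold lower [3.26 to 3.63], at rank 79. Relative to the row with the most counts over both libraries (ENSBTAG00000027610) it was 4.18 times higher at 9 months [3.88 to 4.50]. The tables do not say which of these rows lie on the X chromosome, and those of RPL39 may share reads. In mammals RPL36A also has a near-identical copy off the X chromosome, RPL36AL, so the rows of RPL36A are uncertain.

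Ribosomal proteins that carry other symbols were less reduced. FAU, a fusion of a ubiquitin-like protein with a 40S protein, was 2.59-fold [2.51 to 2.68] and 1.84-fold [1.78 to 1.91] lower in its rows. GNB2L1, now called RACK1, a scaffold on the 40S head, was 2.81-fold lower [2.76 to 2.86]. Of the 4 rows under such symbols 2 were lower and 2 within 2-fold, and the median log2 ratio was -1.13.

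Other TOP mRNAs went mostly the same way as the ribosomal proteins. Of 17 measured rows 13 were lower, against 22.8% of all measured genes, and 4 were within 2-fold. The median log2 ratio of the 17 rows was -1.60. These rows fall under 13 symbols, because some symbols, such as TPT1 and EEF1A1, have several rows. Rows of the same symbol may hold the same reads, so the number of lower rows is not a number of genes. TPT1, the translationally controlled tumour protein, had 26683 counts at 9 months and 207432 at 3 months in row ENSBTAG00000048229, 8.42-fold lower [8.32 to 8.53]. Its rows ENSBTAG00000010156 and ENSBTAG00000004526 were 8.44-fold [8.33 to 8.55] and 9.98-fold [9.81 to 10.1] lower. EEF1A1, which brings aminoacyl-tRNA to the ribosome, was 3.67-fold [3.64 to 3.70] and 4.01-fold [3.98 to 4.05] lower in its rows. PABPC1, the cytoplasmic poly(A)-binding protein, went the other way, with 31875 counts at 9 months and 18175 at 3 months, within 2-fold at a ratio of 1.62 [1.59 to 1.65].

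Factors that build ribosomes did not share the low ratios. Of 37 measured rows of ribosome biogenesis genes 6 were lower, 2 higher and 29 within 2-fold. Their median log2 ratio was -0.34 with TMM but 0.11 with plain totals. With TMM, 16.2% called lower is below the 22.8% of all measured genes. With upper quartile scaling 10 of the 37 were lower, a larger share than the 24.9% of all measured genes. NPM1, a nucleolar chaperone that is also a TOP mRNA, was 3.04-fold lower [2.92 to 3.17], and NOP10, of the particles that modify rRNA, 2.96-fold lower [2.70 to 3.25]. NOC4L, a factor of 40S assembly, was 4.43-fold higher [3.82 to 5.16], and NIP7 2.11-fold higher [1.804 to 2.46].

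The mitochondrial ribosome, which is encoded by other genes, had 11 of 77 rows lower, 3 higher and 63 within 2-fold. The median log2 ratio there was -0.32 with TMM but 0.13 with plain totals. With TMM 14.3% of these rows were lower, below the 22.8% of all measured genes. With reference genes 28 of the 77 were lower, a larger share than the 29.7% of all measured genes. MRPS34 was 4.19-fold lower [3.74 to 4.69] and MRPS24 2.37-fold higher [2.11 to 2.66]. Of 5 chaperones of nascent chains, BTF3 and NACA, partners in the nascent polypeptide-associated complex, were 2.33-fold [2.26 to 2.41] and 2.17-fold [2.10 to 2.25] lower. The other 3 of these chaperones lay within 2-fold, and the median was -0.40 with TMM but 0.05 with plain totals.

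Regulators of TOP mRNA translation had 3 of 12 rows lower, 3 higher and 6 within 2-fold, and a median log2 ratio of 0.12 with TMM but -0.19 with reference genes. These 25% lower and 25% higher are near the 22.8% and 28% of all measured genes, so the list as a whole did not stand out, and its genes are given as single values. MTOR, the kinase at the centre of this control, had 5504 counts at 9 months and 1707 at 3 months, 2.98-fold higher [2.82 to 3.14]. LARP1 and LARP4, RNA-binding proteins that associate with TOP mRNAs or with poly(A) tails, were 2.24-fold [2.16 to 2.33] and 2.83-fold [2.60 to 3.08] higher. EIF4EBP1, a translation inhibitor that MTOR inactivates, was 4.67-fold lower [3.97 to 5.51], with 183 counts at 9 months and 788 at 3 months.

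**Figure D5:**
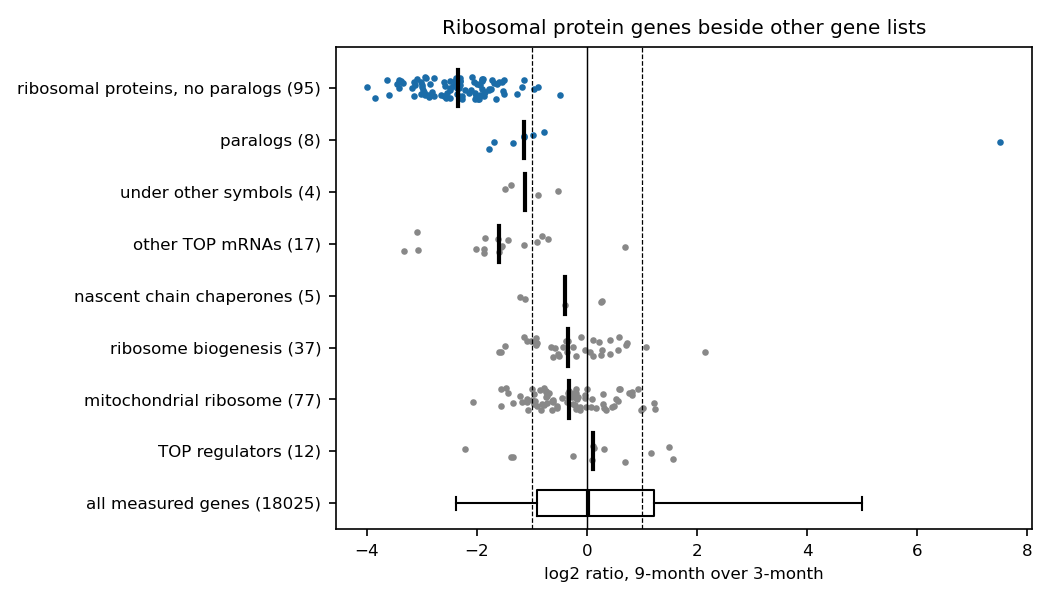
Log2 ratio of the 9-month to the 3-month library for the measured rows of each list, 1 point per row, with a bar at the median and the number of rows in brackets. The box of all measured genes spans the quartiles with whiskers at the 5th and 95th percentiles, and dashed lines mark 2-fold. The median of the ribosomal proteins without paralogs lies to the left of the other medians drawn, which leave out the cell type markers, and RPL10L is the point at 7.51.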

How the data were processed

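Total RNA of seminiferous tubules was sequenced in 1 library per age. Trimmomatic 0.33, STAR 2.4.0 and the build UMD3.1 appear in the submitters' processing notes. The counting program, annotation release, strand setting and handling of multi-mapped reads have no entry there (not given in the sources used here). The tables have no header, so units were worked out from the values. The deposited counts are raw whole numbers per gene. The authors' RPKM equals counts per kilobase of the listed length relative to the table's own total, to within 0.000496% in both tables. The number of per-sample columns left unused was 0.

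Counts were scaled by TMM in edgeR 4.0.16 under R 4.3.3, with factors of 1.17 for the 9-month and 0.855 for the 3-month library. Log2 ratios carry a prior count of 2. Folds are ratios of scaled counts with 95% Clopper-Pearson intervals of the conditional binomial, and intervals of a ratio between paralog and parent are exact conditional ones. PCR reads need not be independent molecules, so intervals may be too narrow. The TMM-scaled ratios were tested on simulated counts in which a small part of the genes had known ratios, as many lower as higher. In these data many more genes differed between the libraries, and that situation was not simulated. Alternatives were other scalings (among them DESeq2 1.42.0 size factors), prior counts, count minimums, fold thresholds and treatments of symbols with several rows. Python 3.11.15 with scipy 1.17.1 did the rest.

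The members, lists and the rule for named genes were chosen with earlier results of these data known. That rule took all paralogs with their parents, stalk proteins, RPSA, X-linked parents, RPS6, RPS27A, the 10 lowest and 10 highest log2 ratios, the 8 highest RPKM per library, symbols with several rows and the strongest members of other lists. The other members named in the report were added for their place in the ribosome after their values were seen. Symbols are those of the tables, and 81 of 82 are RefSeq symbols in ARS-UCD2.0. A few genes are in the counts and medians but are not reported by name here.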

Additional observations from a re-analysis of the deposited data

How the results depend on the processing

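No log2 ratio of the 103 measured members changed sign under the 5 other scalings, 2 other prior counts and 2 other count minimums. The 7 paralog rows stayed above their parents under those prior counts and minimums and against each measured parent row. The minimums could not change this, because they removed none of these rows and scaling cancels within a pair. Of these parents only RPL10 had more than 1 measured row. No paired analysis was possible because each age has 1 library, and no replicate could be left out. Against TMM, the log2 ratio of effective library sizes shifted the values by about 0.45 with plain totals, -0.10 with upper quartile and -0.30 with reference genes, and by at most 0.02 in size with the others. The median of the members was -1.85, -2.41 and -2.61 in the same order, and -2.24 over symbols with 1 row. The summed level of the members was lower by 3.99-fold with plain totals, 5.86-fold with upper quartile, 6.73-fold with reference genes, 5.39-fold with DESeq2 size factors, 5.50-fold with TMM without the members, 5.53-fold with a minimum of 1 count, 5.39-fold with a minimum of 50 counts, 4.997-fold over symbols with 1 row and 5.53-fold without paralogs. One row per symbol, an alternative chosen after seeing the data, gave 5.23-fold. Over symbols with 1 row 56 of 60 were lower, a smaller number because fewer genes entered, and with a 4-fold threshold 64 of 103 were. Without paralogs 0 were higher, since RPL10L is one.

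With plain totals the rows called lower numbered 1 for ribosomal proteins under other symbols, 1 for TOP regulators, 3 for ribosome biogenesis, 0 for nascent chain chaperones and 4 for the mitochondrial ribosome. For ribosome biogenesis they numbered 10 with upper quartile, 10 with reference genes and 13 at 1.5-fold. For the mitochondrial ribosome they numbered 17, 28 and 32 under these settings. The share of all measured genes lower at 1.5-fold was not computed. The 13 and 32 rows at that threshold therefore cannot be read as more than the share of all genes. Among all measured genes 14.7% were lower with plain totals, 24.9% with upper quartile and 29.7% with reference genes. Ribosome biogenesis passed that share with upper quartile, and the mitochondrial ribosome with reference genes. At 4-fold the rows called lower numbered 0 for ribosomal proteins under other symbols and 1 for TOP regulators. For other TOP mRNAs they numbered 4, all of TPT1 or EEF1A1. They numbered 0 for ribosome biogenesis, 0 for chaperones and 1 for the mitochondrial ribosome. Of all measured genes 8.65% were at least 4-fold lower. Of the recomputed log2 ratios of single members 631 moved by no more than 0.5 of the width of their counting interval and 296 by more. Depth limits RPL10L, with 9 counts at 3 months, and RPL3L, with 88 counts at 9 months and 208 at 3 months.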
